A study of Mus musculus with 5 samples.

Results

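MOL1 is a label of mature oligodendrocytes of the adult mouse corpus callosum, 1 of 12 in the deposited cell table, and every cell so labelled was taken. Of 2853 cells analysed, 161 carried the MOL1 label, 111 of them from the TdTom+ library and 50 from the GFP+ library. The 4 genes given as markers of these cells were Fosb, Egr2, Egr1 and Fos, and all 4 were higher in MOL1 cells than in the remaining cells of both libraries.

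The cells came from healthy P60 mice that carried Emx1::Cre together with the reporter Sox10::Cre-GFP-STOP-TdTom (with a LoxP element before GFP in the study's methods) on a mixed CBA and C57BL/6 background, so that the reporter colour marks oligodendrocyte lineage cells by their developmental origin. TdTom+ cells descend from the dorsal, Emx1-expressing forebrain, and GFP+ cells, whose ancestors did not express Emx1::Cre, have a ventral origin. The corpus callosum of a pair of mice was pooled, dissociated with an enzyme kit, sorted by reporter fluorescence and run as 1 droplet library per origin (10x Genomics 3′ v2 chemistry). With 1 library per origin there is no replicate and no test, both origins share the same pooled animals, and intervals given throughout are 95% intervals that cover counting error only. The 3 spinal cord samples, and any sample prepared without dissociation, are not analysed here.

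Immediate early genes are genes whose transcription starts within minutes of a stimulus such as a growth factor, membrane depolarisation or cell stress, without need for new protein synthesis. Many encode transcription factors, among them the FOS and JUN proteins that pair to form AP-1 and the zinc finger proteins of the EGR family, and others encode proteins that end the response, such as phosphatases and RNA-decay factors. Their transcripts are short-lived. In glia of the myelin lineage Egr2 is best known as the master regulator of myelination in Schwann cells, whereas mature oligodendrocytes are the myelinating cells of the central nervous system.

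The classic upstream elements of this gene class are the CArG box, bound by serum response factor, and the cAMP response element (CRE), bound by CREB. The 250 bases before each RefSeq start site (GRCm38.p6) were searched on both strands for the CArG box, for the CRE with the letters TGACGTCA and for the AP-1 motif with the letters TGANTCA. Of the 16 genes made up of the 4 markers and the genes with the highest ratios, 11 had a window. Egr2 and Zfp36 held a CArG box, and they are printed because they carry the element that is the hallmark of the class. Dusp1 and Btg2 held a CRE and were added after the search. Capitals mark the motif, and each sequence runs 5′ to 3′ on the strand of the gene.

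Egr2, chr10:67537316-67537565, plus strand, CArG box starting 72 bases before the start site: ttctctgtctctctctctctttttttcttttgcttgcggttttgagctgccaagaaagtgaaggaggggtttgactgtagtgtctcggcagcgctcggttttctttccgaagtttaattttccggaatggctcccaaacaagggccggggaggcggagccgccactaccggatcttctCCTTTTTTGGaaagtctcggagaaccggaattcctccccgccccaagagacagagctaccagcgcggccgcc

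Egr2, chr10:67537619-67537868, plus strand, CArG box starting 72 bases before the start site: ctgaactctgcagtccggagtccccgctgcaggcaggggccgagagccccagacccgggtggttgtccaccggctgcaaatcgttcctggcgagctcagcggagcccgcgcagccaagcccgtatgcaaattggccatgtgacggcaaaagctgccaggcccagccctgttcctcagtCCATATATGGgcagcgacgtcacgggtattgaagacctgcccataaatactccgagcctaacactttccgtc

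Zfp36, chr7:28379229-28379478, minus strand, CArG box starting 58 bases before the start site: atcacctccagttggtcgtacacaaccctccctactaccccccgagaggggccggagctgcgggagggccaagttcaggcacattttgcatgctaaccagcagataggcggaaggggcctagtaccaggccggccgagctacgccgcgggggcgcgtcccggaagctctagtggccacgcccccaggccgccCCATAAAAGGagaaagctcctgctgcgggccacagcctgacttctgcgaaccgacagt

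Dusp1, chr17:26508473-26508722, minus strand, CRE starting 143 bases before the start site: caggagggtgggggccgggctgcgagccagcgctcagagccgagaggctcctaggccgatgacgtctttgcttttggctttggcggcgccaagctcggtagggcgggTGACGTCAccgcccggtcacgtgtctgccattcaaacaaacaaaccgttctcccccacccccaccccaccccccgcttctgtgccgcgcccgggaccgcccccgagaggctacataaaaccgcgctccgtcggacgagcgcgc

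Btg2, chr1:134079156-134079405, minus strand, CRE starting 166 bases before the start site: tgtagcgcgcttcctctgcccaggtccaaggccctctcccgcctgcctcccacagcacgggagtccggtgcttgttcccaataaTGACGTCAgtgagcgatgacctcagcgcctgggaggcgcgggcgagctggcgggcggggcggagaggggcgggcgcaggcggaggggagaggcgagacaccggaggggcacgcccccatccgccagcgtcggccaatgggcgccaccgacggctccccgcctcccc

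Egr2 had 5 RefSeq windows, of which 4 held a CArG box, and the pair shown covers both different boxes. Over all genes with a window, 1.62% of 27025 held a CArG box, 1.77% a CRE and 7.82% an AP-1 motif. Of the 51 listed immediate early genes with a window, 4 held a CArG box (Dusp5, Egr2, Srf, Zfp36), 4 a CRE (Btg2, Dusp1, Maff, Plk2) and 3 an AP-1 motif (Bdnf, Csrnp1, Zfp36l1). The windows of Fosb, Fos, Jun, Junb, Klf4, Gm26802 and Dnajb1 held none of these letters, which says nothing about elements farther away or of other spelling.

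MOL1 cells made up 5.84% (4.83 to 6.99) of the TdTom+ library and 5.25% (3.92 to 6.87) of the GFP+ library, and the intervals overlap widely. Among cells with a mature oligodendrocyte label they made up 6.85% and 6.32%. A MOL1 cell had a median of 3776 UMIs (1882 to 10483) in the TdTom+ library and 3693 UMIs (2172 to 7412) in the GFP+ library, compared with medians of 3318 and 3279 UMIs in the other cells. The median share of mitochondrial UMIs was 1.25% in MOL1 cells and 1.37% in the others. Because MOL1 cells were a little deeper, levels are given as UMIs summed over cells and scaled to a library of 1000000 (CPM) and shares of cells with a UMI are given after thinning to equal depth.

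Fosb, which encodes an AP-1 subunit of the FOS family, had 429 CPM (371 to 493) in TdTom+ MOL1 cells and 26.1 CPM in the other TdTom+ cells. In the GFP+ library it had 425 CPM (340 to 525) in MOL1 cells and 29.9 CPM in the others. MOL1 was thus higher in both libraries, by log2 ratios of 3.99 (3.74 to 4.34) and 3.79 (3.40 to 4.26). Fos, its founding family member, had 2028 CPM (1901 to 2162) in MOL1 cells against 193 CPM in the TdTom+ library, and 2337 CPM (2132 to 2558) against 188 CPM in the GFP+ library. Its log2 ratios were 3.39 (3.27 to 3.52) and 3.63 (3.46 to 3.81), with little difference between origins.

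Egr1, a zinc finger transcription factor, had 620 CPM (550 to 695) in TdTom+ MOL1 cells and 68.0 CPM in the remaining TdTom+ cells. In the GFP+ library these values were 499 CPM (406 to 606) and 70.1 CPM. Both libraries again showed higher levels in MOL1, with log2 ratios of 3.17 (2.97 to 3.40) and 2.82 (2.48 to 3.17). Egr2 rested on few molecules, 28 UMIs in TdTom+ and 6 UMIs in GFP+ MOL1 cells, which gave 60.04 CPM (39.9 to 86.8) and 29.7 CPM (10.9 to 64.5). The other cells had 2.70 and 2.37 CPM, so the log2 ratios of 4.04 (3.57 to 5.41) and 3.19 (1.84 to 5.36) are large but wide in the smaller library.

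**Figure D1:**
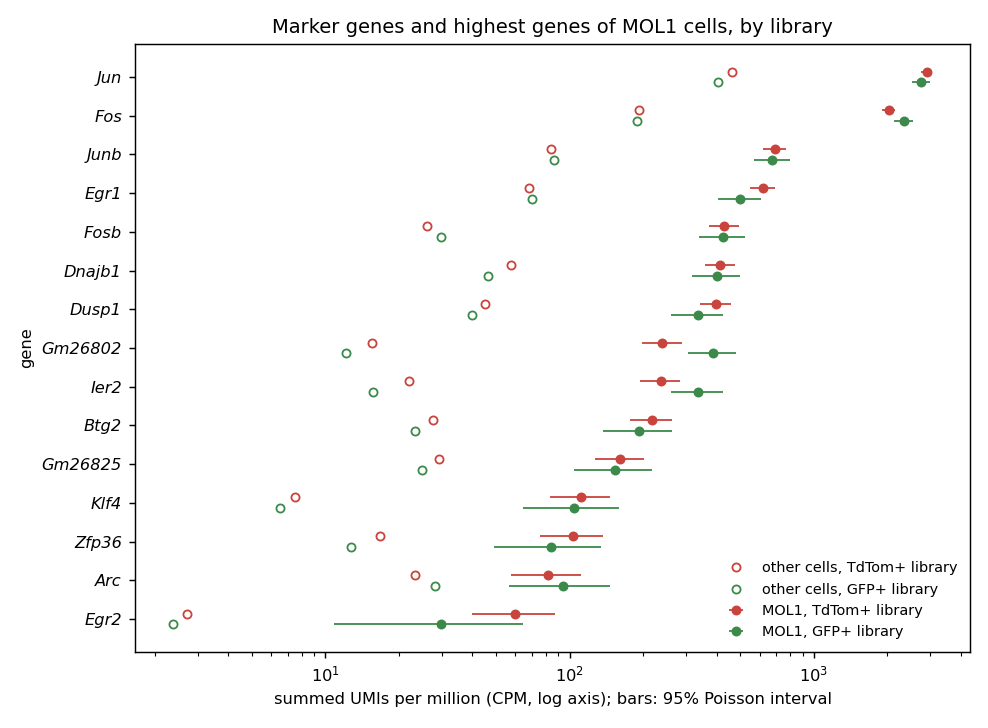
Summed UMIs in CPM (log axis) of the 4 marker genes and other genes with high ratios, in MOL1 cells (filled) and all other cells (open) of the TdTom+ library (red) and the GFP+ library (green), with 95% Poisson intervals for MOL1. Every gene shown is higher in MOL1 in both libraries, and the interval of Egr2 in GFP+ MOL1 cells, 10.9 to 64.5 CPM, is the widest relative to its value.

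The labels were made by clustering these same cells on their expression, so a difference between MOL1 and the rest describes the label and is not a test of it. Over 2931 genes that averaged 50 CPM or more (the mean of MOL1 and other cells over both libraries), 20 genes were higher in MOL1 by a log2 ratio of at least 1 in both libraries, which is 0.682% of the genes. Of these 20 genes, 12 belonged to the 2 lists of immediate early genes. The median log2 ratio over all 2931 genes was -0.01 for TdTom+ and -0.03 for GFP+ cells, and 73.6% of the genes lay within 0.5 of 0 in both. Without the filter 64 genes, 0.545% of all 11733, were higher in both libraries, and 17 of them were listed immediate early genes, while 918 genes, 7.82%, were lower in both. In single libraries 26 genes in TdTom+ and 40 genes in GFP+ passed this ratio, so 76.9% of the TdTom+ genes and 50% of the GFP+ genes were shared.

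Among the transcription factors, Jun, the AP-1 partner of the FOS proteins, had 2906 against 461 CPM in the TdTom+ library and 2752 against 406 CPM in the GFP+ library (log2 ratios 2.65 and 2.76). Junb, another JUN family member, had 693 against 84.0 CPM and 677 against 86.3 CPM (3.03 and 2.96). Jund, the family member best known for steady expression, had 2646 against 1466 CPM and 2288 against 1224 CPM, so its log2 ratios of 0.85 and 0.90 stayed under 1. The JUN family thus differed in degree, with Junb highest in ratio and Jund lowest. Klf4, a Krüppel-like factor, had 112 against 7.50 CPM and 104 against 6.50 CPM (3.73 and 3.80). Ier2, a small nuclear immediate early protein, had 236 against 22.1 CPM and 336 against 15.7 CPM (3.36 and 4.34). Nr4a1, an orphan nuclear receptor, had 53.6 against 14.6 CPM and 44.5 against 15.7 CPM (1.81 and 1.45), below the level needed for the count of 20.

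Of 30 immediate early transcription factors listed, 23 were rows of the matrix, 9 passed the filter on low values and 10 of the 23 were higher in both libraries, 7 of them past the filter, where 0.545% of all genes without the filter and 0.682% past it were higher. None was lower in both. Their median log2 ratio was 1.26 for TdTom+ and 1.66 for GFP+ cells, against -0.13 and -0.22 over all 11733 genes of the matrix. Summed over the list, they had 9995 CPM in MOL1 and 2460 CPM in other TdTom+ cells, and 9755 against 2162 CPM in the GFP+ library. Across both immediate early lists, 9 of the 19 genes past the filter passed it only through their level in MOL1, so the counts past the filter describe a set that was partly selected by that level.

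Effectors and feedback regulators varied more among themselves. Dusp1, the phosphatase that switches off MAP kinases, had 397 against 45.0 CPM in the TdTom+ library and 336 against 39.9 CPM in the GFP+ library (log2 ratios 3.11 and 3.04). Btg2, an antiproliferative factor that recruits mRNA deadenylases, had 217 against 27.6 CPM and 193 against 23.4 CPM (2.93 and 2.99). Zfp36, which promotes decay of AU-rich mRNAs, had 103 against 16.7 CPM and 84.0 against 12.7 CPM (2.56 and 2.63). Arc, best known as a neuronal activity gene, was also higher, at 81.5 against 23.3 CPM and 93.9 against 28.1 CPM (1.77 and 1.71).

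Several members of this list behaved otherwise. Rhob, a small GTPase, had 778 against 852 CPM in the TdTom+ library and 865 against 815 CPM in the GFP+ library, a log2 ratio of -0.13 and 0.09. Sgk1, a serum- and glucocorticoid-induced kinase, had ratios of 0.06 and 0.59. Dusp6, Spry4, Trib1, Cyr61 and Bdnf, and from the list of transcription factors Myc, Fosl2 and Cebpb, had 0 UMIs in the 668714 UMIs of MOL1 cells, where a count of 0 allows up to 3 UMIs. In all, 31 of 37 listed effectors were in the matrix, 10 passed the filter, 7 of the 31 were higher in both libraries and 5 were lower in both, with 5 higher and 0 lower among those past the filter. The 5 lower genes are to be read beside the 7.82% of all genes that were lower without the filter. Of all genes, 0.545% were higher without the filter and 0.682% past it. The higher expression in MOL1 thus covered a subset of the immediate early genes and not the whole lists.

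**Figure D2:**
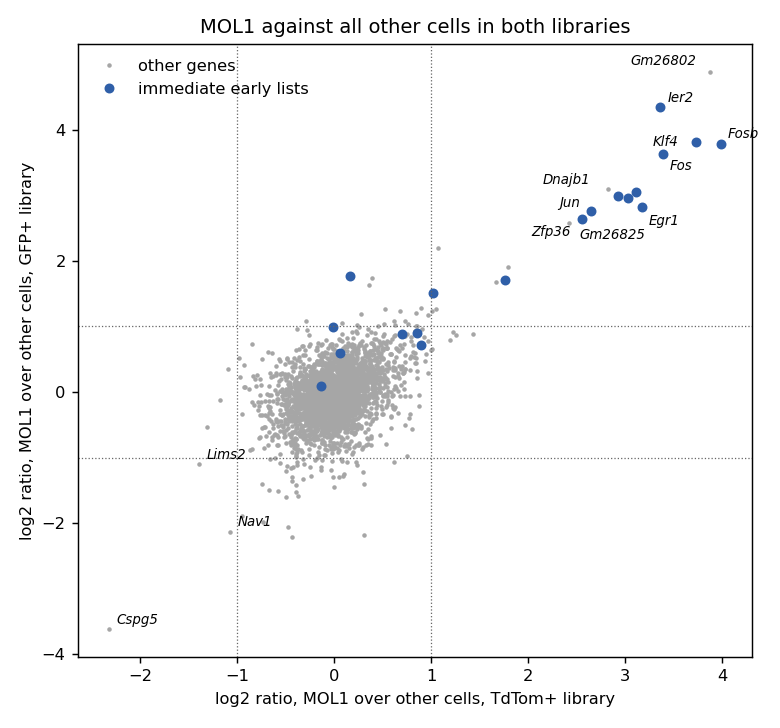
Log2 ratio of MOL1 over all other cells in the TdTom+ library (x axis) and the GFP+ library (y axis) for the 2931 genes past the filter of 50 CPM, with listed immediate early genes in blue and dotted lines at ratios of 1 and -1. The 20 genes to the upper right of both lines include 12 listed immediate early genes, and 3 genes lie to the lower left.

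Genes outside the immediate early lists were among the highest too. Dnajb1, a heat-inducible HSP40 co-chaperone, had 414 against 57.6 CPM in the TdTom+ library and 400 against 46.1 CPM in the GFP+ library (log2 ratios 2.82 and 3.09). Hspa1a, an inducible HSP70, had 380 against 119 CPM and 282 against 87.8 CPM (1.66 and 1.67), but its reads are shared with the near-identical Hspa1b and the split between them is uncertain. With both libraries summed, the label MOL2/MFOL came second for both genes. It was near MOL1 for Hspa1a, at 265 against 350 CPM, but not for Dnajb1, at 106 against 410 CPM. Of the 19 listed heat shock and chaperone genes, all in the matrix, 2 (Dnajb1 and Hspa1a) were higher in both libraries, against 0.545% of all genes, and 0 were lower. The list's median log2 ratio was 0.54 in each library. Hspa1a rested on few cells in the GFP+ library, where 34 of 50 MOL1 cells were at 0 and the 5 cells with the most held 73.7% of its 57 UMIs. The whole list summed to 11839 against 9691 CPM in the TdTom+ library and 11588 against 9126 CPM in the GFP+ library. The part of the tissue preparation in these levels was not tested.

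Further genes of the 20 were Gm26802, Gm26825, Adamts1, a secreted protease, at 116 against 54.5 CPM and 227 against 48.8 CPM, Phgdh, the first enzyme of serine synthesis, at 330 against 158 CPM and 346 against 143 CPM, Btg1, a relative of Btg2, at 85.8 against 41.9 CPM and 104 against 35.8 CPM, and Eci2, an enzyme of fatty acid oxidation, at 85.8 against 42.0 CPM and 109 against 45.5 CPM. Btg1, Phgdh, Adamts1 and Eci2 lay just inside the ratio of 1 in the TdTom+ library. Gm26825, a long noncoding RNA at chr5:5781530-5783636 on the plus strand, had log2 ratios of 2.42 and 2.58. Over 1940 of its 2026 bases it aligned to the opposite strand of Hspa8 with 99.6% identity. Whether counting used strand is not given in the sources used here, and its reads cannot be told apart from those of Hspa8 copies without it. Hspa8 itself had ratios of 0.94 and 0.57.

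By the lower of its values in both libraries, Gm26802 had the highest ratio of all genes past the filter. It is annotated as a lincRNA at chr7:19298260-19300770 (mm10, GENCODE vM21) on the minus strand, with 2 exons, and lies 1925 bases downstream of Fosb (chr7:19302696-19310051, minus strand). It had 240 CPM (198 to 289) against 15.5 CPM in the TdTom+ library and 385 CPM (305 to 481) against 12.1 CPM in the GFP+ library, log2 ratios of 3.87 (3.56 to 4.36) and 4.88 (4.43 to 5.57). The neighbours with rows in the matrix showed no such ratio, since Rtn2 had 17.9 CPM in MOL1 and 24.2 CPM elsewhere and Vasp had 5.98 and 9.56 CPM. After thinning, Gm26802 was detected in 44 of 84 MOL1 cells with a Fosb UMI (52.4%, 41.2 to 63.4) and in 18 of 73 without one (24.7%, 15.3 to 36.1). Both genes lie on the same strand at close range, so reads running past the end of Fosb could be counted to Gm26802, and this was not tested.

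**Figure D3:**
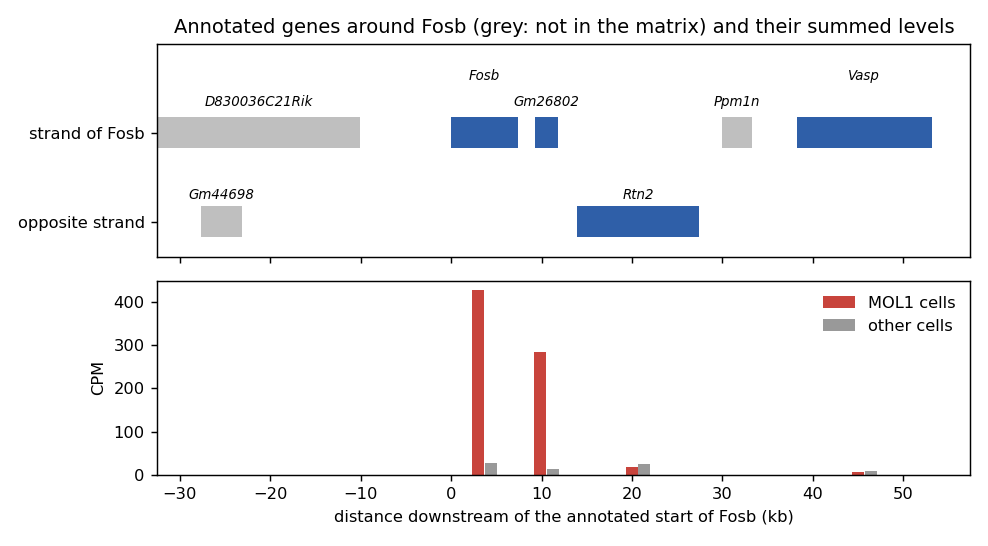
Upper panel, annotated genes around Fosb drawn to scale by distance downstream of its annotated start (kb), by strand, with genes that are not rows of the matrix in grey. Lower panel, summed UMIs in CPM in MOL1 cells (red) and other cells (grey): Fosb and Gm26802 are higher in MOL1, while Rtn2 and Vasp, with 12 and 4 UMIs in MOL1 cells, are not.

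The same genes were then compared label by label. With both libraries summed, MOL1 had the highest level of all 12 labels for each of its 8 listed markers. Oligodendrocyte precursor cells (OPC), the dividing progenitors of the lineage, came second for Fos at 855 CPM, Jun at 1827 CPM, Egr1 at 426 CPM, Fosb at 234 CPM and Egr2 at 18.8 CPM. Btg2 and Klf4 were second in MFOL2, a label of myelin-forming cells, at 104 and 45.3 CPM. The order below MOL1 thus differed by gene, and for 7 of the 8 markers the label next to it in the summed levels was OPC, not another mature label. Within the libraries MOL1 did not always stand apart from OPC. Egr1 had 525 CPM (399 to 679) in GFP+ OPC and 499 CPM (406 to 606) in GFP+ MOL1 cells, so OPC was the higher of the pair there. In the TdTom+ library the intervals of OPC and MOL1 overlapped for Egr2, Junb and Ier2, and in the GFP+ library for Egr2 and Btg2 as well. Outside the listed markers they overlapped for Klf4 in the GFP+ library and for Gm26802 in the TdTom+ library. There Gm26802 had 161 CPM (104 to 238) in OPC and 240 CPM (198 to 289) in MOL1 cells.

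Within single cells, the 54 listed immediate early genes of the matrix took a median of 1.13% (0.350 to 3.40) of a MOL1 cell's UMIs, 1.12% in the TdTom+ and 1.18% in the GFP+ library. The other cells had a median of 0.334% and a maximum of 3.84%. Medians of the other labels ran from 0.195% in MOL2/4 to 0.496% in MOL2/MFOL, and no MOL1 cell lay below the median of the other cells. There were 47 other cells (1.75% of 2692) above the MOL1 median, and 19 of them were OPC, which is 22.9% of that label. A further 10 were MOL2/MFOL and 7 were MFOL1. The immediate early share was thus graded, with MOL1 at its upper end and overlapping with single cells of other labels. Without the 4 markers, the MOL1 median was 0.842% and that of the other cells 0.325%.

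**Figure D4:**
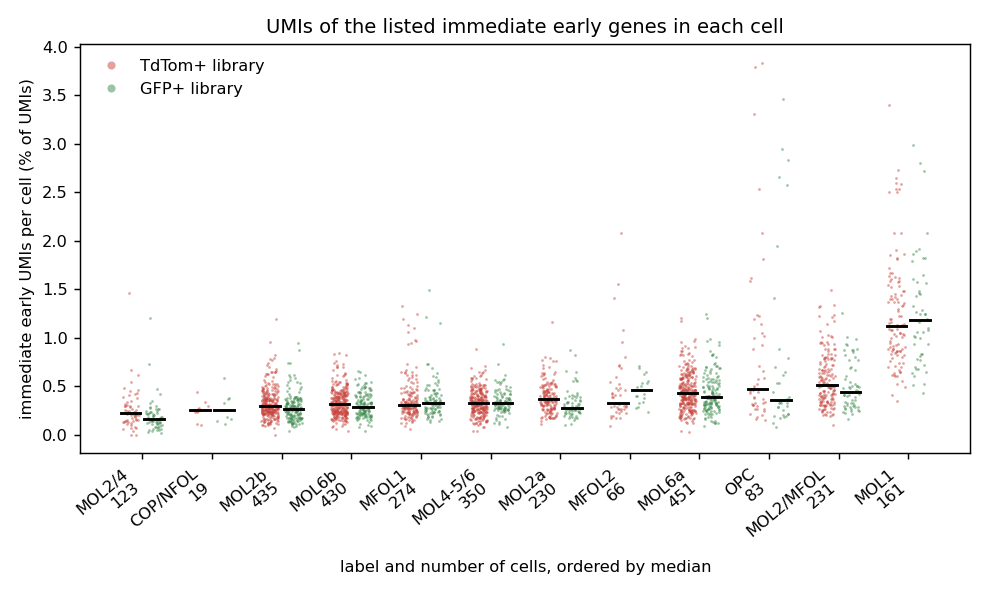
Share of each cell's UMIs (%) from the 54 listed immediate early genes, by label with its number of cells, ordered by median, for the TdTom+ (red) and GFP+ (green) libraries, with black bars at medians. MOL1 medians of 1.12% and 1.18% stand above those of all other labels, and single OPC reach 3.84%.

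After thinning each cell to 2400 UMIs, which left out 4 MOL1 cells (2 of each library) and 220 others, Fos was detected in 89.8% (84.0 to 94.1) of 157 MOL1 cells and in 18.5% of 2472 other cells. Jun was detected in 94.9% and 44.6%, and Egr1 in 62.4% and 10.9%. Fosb was detected in 53.5% (45.4 to 61.5) of MOL1 cells and in 4.69% of the others. Egr2 was detected in only 9.55% (5.45 to 15.3) and 0.364%, so most MOL1 cells lacked an Egr2 UMI at this depth. None of these genes can be assumed absent from any label, and the level that free RNA alone would give is therefore not known. In MOL6b the shares were 8.31% for Fos and 1.07% for Fosb, and in COP/NFOL Fosb was detected in 0 of 18 cells (0 to 18.5%). Without thinning, the MOL1 shares were 91.9% for Fos, 78.3% for Egr1, 65.8% for Fosb and 18.0% for Egr2.

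Few MOL1 cells carried every marker. Of the 157 thinned cells, 5 had a UMI of none of the 4 markers, 31 had 1 marker, 66 had 2, 45 had 3 and 10 had all 4. Hence 77.1% had at least 2 markers. Among the 2472 other cells the numbers were 1837, 452, 150, 31 and 2, and both cells with all 4 were OPC. A thinned MOL1 cell had a median of 9 (2 to 22) listed immediate early genes, against 4 in the others. Within MOL1, Egr1 was detected in 64.3% of cells with Fosb and 60.3% of cells without it, and Fos in 91.7% and 87.7%. Egr2 was detected in 13 of 84 MOL1 cells with Fosb (15.5%, 8.51 to 25.01) and in 2 of 73 without it (2.74%, 0.334 to 9.55). Junb was detected in 65.2% of cells with Fos and 37.5% of the few without.

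Unthinned, a MOL1 cell held a median of 10 Jun UMIs (highest 53), 7 Fos UMIs (highest 34), 2 Egr1 UMIs (highest 15) and 1 Fosb UMI (highest 9). Fos was at 0 in 13 of 161 cells, Fosb in 55, Egr1 in 35 and Egr2 in 132. Jun, which is not among the 4 markers given for the label, was at 0 in fewer cells than any of them, 5.

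Apart from these genes MOL1 cells looked like mature oligodendrocytes. The 16 listed myelin genes, all in the matrix, included none with a log2 ratio of 1 or more in either direction in both libraries, and their median was 0.07 in each. They summed to 73425 CPM in MOL1 and 71150 CPM in other TdTom+ cells, and to 75815 against 71676 CPM in the GFP+ library. Mbp, a major structural gene of myelin, had ratios of -0.08 and -0.06. Cnp, a myelin phosphodiesterase, was at 0.40 and 0.57, Cldn11, the tight junction gene of the myelin sheath, at 0.38 and 0.48, and Mal, a myelin proteolipid, at -0.40 and -0.30. The 20 cholesterol synthesis genes, which supply myelin lipid, had medians of 0.27 and 0.29, with 0 higher and 1 (Hsd17b7, with 2 UMIs in MOL1) lower in both, below the 7.82% of all genes.

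The 14 lineage transcription factors had medians of -0.28 and -0.35, with 0 higher and 1 (Hes5, a Notch target with 0 UMIs in MOL1) lower, which is near the 7.82% of all genes. Olig2 had 195 against 199 CPM in the TdTom+ library and 208 in both sets of the GFP+ library. Sox10 was at 950 against 1032 CPM and 642 against 645 CPM. Both master regulators of the lineage were thus close to their level elsewhere. Against the other cells, OPC markers were low, with 5 of 6 lower in both libraries where 7.82% of all genes were, and so were 4 of 6 markers of committed precursors and newly formed cells, among them Gpr17, a receptor of that stage, at 0 UMIs. The other cells include OPC and COP/NFOL, where Hes5 and all of these markers were at their highest. Among the 12 labels, MOL1 ranked from 4 (Pdgfra and Cspg4) to 10 (Serpine2) for the OPC markers. For the markers of committed precursors and newly formed cells it ranked from 4 (Neu4) to 12 (Gpr17, Tcf7l2 and Tmem108).

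Past the filter, 3 genes, 0.102%, had a log2 ratio of -1 or lower in both libraries. Cspg5, a proteoglycan of progenitors, had 19.3 CPM in MOL1 against 100 CPM in other TdTom+ cells and 9.88 against 132 CPM in the GFP+ library (-2.32 and -3.61). Lims2, an adaptor of integrin adhesions, had ratios of -1.39 and -1.10, and Nav1, a neuron navigator protein, -1.07 and -2.13. Against other mature oligodendrocytes only, no gene was lower in both, and 2 of the 3 changed direction in 1 library, Cspg5 to 0.35 in TdTom+ and Lims2 to 0.39 in GFP+. Over all 12 labels, Cspg5 was highest in OPC and Lims2 and Nav1 were highest in COP/NFOL, the label of committed precursors and newly formed cells. Next in order came Zmynd8, a chromatin reader (-0.94 and -1.88), Dnmt3a, a DNA methyltransferase (-0.86 and -1.98), Phactr3, a regulator of a protein phosphatase (-0.85 and -1.96), and Sox8, a lineage transcription factor (-0.74 and -1.40). Of these, Zmynd8 and Sox8 were at their lowest of all 12 labels in MOL1. So was Nav1, at 32.9 CPM with both libraries summed, whereas Cspg5 and Lims2 were not.

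Marker lists of other cell types differed in their level in MOL1. Of 8 microglial genes listed, 6 were in the matrix and had 0 UMIs, 7 neuronal and 6 endothelial genes had 1 UMI per list, and 1 pericyte gene had 0. The 9 astrocyte genes summed to 1554 UMIs, of which Apoe gave 1457, while Aqp4 and Gja1 were at 0. Through Apoe the sum of the list was 2125 against 1412 CPM in the TdTom+ library and 2782 against 1484 CPM in the GFP+ library, whereas its median log2 ratio was -1.41 and -1.47, with 0 of 9 genes higher and 4 lower in both, where 7.82% of all genes were lower. Of the Schwann cell list, 2 of 5 genes were in the matrix, with 78 UMIs, all of Sox2, at 112 against 145 CPM and 128 against 122 CPM. Foxj1, the 1 ependymal gene in the matrix, had 30 UMIs, and the 2 red blood cell genes had 11 UMIs, with log2 ratios of opposite sign in the 2 libraries for Foxj1 (-0.10 and 0.52). UMIs of at least 3 astrocyte genes were found in 5 MOL1 cells (4 TdTom+ and 1 GFP+). Nuclear-retained Malat1 had ratios of -0.10 and -0.13 and Neat1, a nuclear RNA induced by stress, 0.80 and 0.83.

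The label was then set aside and each MOL1 cell was compared with the mean profile of every label, by rank correlation over 1000 variable genes, chosen after the 73 immediate early and heat shock genes of the matrix had been left out. On average MOL1 cells correlated most with the MOL1 profile, at a mean rho of 0.751, against 0.746 for MOL2/MFOL and 0.743 for MOL6a. Cell by cell, 22 of 161 MOL1 cells (13.7%) were nearest to the profile of their own label, whereas own-label shares elsewhere were 100% in OPC, 83.7% in MOL2/4, 71.2% in MOL6b, 57.6% in MOL2/MFOL and 3.03% in MFOL2. The variable genes were chosen from cells other than MOL1, while every other label helped to choose them. A low own-label share of MOL1 was thus partly set by construction and is not on like terms with the others. With the immediate early and heat shock genes kept, 39.8% of MOL1 cells were nearest to MOL1. When MOL1 was not offered as a choice, 66 cells were nearest to MOL6a, 48 to MOL2/MFOL, 23 to MOL2a, 14 to MOL6b, 5 to MOL4-5/6, 3 to MOL2/4, 1 to MFOL1 and 1 to MFOL2. The highest correlations differed by little, with a median gap of 0.0032 and 139 of 161 cells under 0.01, so a single cell's nearest label is weakly set.

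After these values were seen, the labels were joined into 2 families, those named for MOL2 and those named for MOL4 to MOL6. MOL1 cells divided almost evenly, 74 (46.0%, 38.1 to 54.0) nearest to a MOL2 label and 85 (52.8%, 44.8 to 60.7) nearest to a MOL4 to MOL6 label, with 2 elsewhere. In the TdTom+ library there were 51 and 59 cells and in the GFP+ library 23 and 26, so the division was alike in both origins. Under 3 other ways of matching, 73, 67 and 70 of the 74 and 85, 85 and 84 of the 85 cells kept their family.

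Genes known to mark the MOL2 and MOL5/6 populations split accordingly, and since they were among the genes matched this describes the division. Klk6, a secreted serine protease that marks MOL2, had 762 CPM in MOL1 cells near MOL2 and 12.7 CPM in those near MOL4 to MOL6, against 426 and 7.26 CPM in the cells so labelled. Ptgds, prostaglandin D synthase and a marker of MOL5/6, had 1077 and 21005 CPM, against 1638 and 15297 CPM in the labelled cells. Opalin, a myelin glycoprotein, had 240 and 1223 CPM, and Il33, an alarmin cytokine, 57.7 and 546 CPM. In thinned cells Ptgds was detected in 15 of 37 MOL1 cells with Klk6 (40.5%, 24.8 to 57.9) and in 105 of 120 without it (87.5%, 80.2 to 92.8). MOL1 therefore held cells of both mature profiles, and over all MOL1 cells the 5 MOL2 markers and 5 MOL5/6 markers of the matrix included 0 that were higher or lower in both libraries.

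Fos, Fosb, Egr1 and Dusp1, immediate early genes that took no part in the matching, were higher than in the labelled cells in both families. Fos, Fosb and Egr1 are among the markers given for MOL1, and the label came from clustering these same cells. Their higher level in either part of MOL1 therefore describes the label and is not a test. Fos had 1775 CPM near MOL2 and 2424 CPM near MOL4 to MOL6, compared with 177 and 159 CPM in the labelled cells. Fosb had 329 and 518 CPM against 18.8 and 20.5 CPM, Egr1 525 and 610 CPM against 63.4 and 46.4 CPM, and Dusp1 384 and 375 CPM against 36.5 and 37.8 CPM. The immediate early share of UMIs had medians of 1.08% and 1.15%, against 0.318% and 0.347% in the labelled cells. Single labels within a family differed more than the families did, with 1.24% near MOL2/MFOL and 0.862% near MOL2a, and 1.26% near MOL6a and 0.746% in the 14 cells near MOL6b. Fos had 2705 CPM (2505 to 2916) near MOL6a and 875 CPM (622 to 1196) near MOL6b.

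Some genes differed between the families, and they were picked out after their values were seen. Nr4a1 had 5.77 CPM near MOL2, with 1 UMI in each library, and 98.5 CPM near MOL4 to MOL6, 103 CPM (65.2 to 154) in TdTom+ and 87.7 CPM (37.9 to 173) in GFP+. Junb had 361 CPM in TdTom+ and 250 CPM in GFP+ cells near MOL2, and 998 and 1173 CPM near MOL4 to MOL6. By single label, however, Junb had 1202 CPM (1070 to 1346) near MOL6a but 426 CPM (257 to 665) near MOL6b, 437 CPM (355 to 532) near MOL2/MFOL and 127 CPM (69.2 to 213) near MOL2a, so its difference did not follow the families. Zfp36 had 46.1 and 27.8 CPM near MOL2 and 161 and 154 CPM near MOL4 to MOL6. Klf6, a Krüppel-like factor, went the other way, with 134 and 120 CPM near MOL2 and 44.7 and 32.9 CPM near MOL4 to MOL6. In GFP+ cells Klf6 rested on 13 UMIs (64.0 to 206 CPM) and 3 UMIs (6.78 to 96.1 CPM), so its intervals overlapped there. Zfp36 in GFP+ cells near MOL2 also rested on 3 UMIs (5.72 to 81.1 CPM). Nr4a1 and Junb also differed in the same direction between the labelled cells, at 2.79 and 22.0 CPM and at 42.7 and 89.7 CPM, whereas Zfp36 was at 12.3 and 14.3 CPM and Klf6 at 49.5 and 45.9 CPM there.

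**Figure D5:**
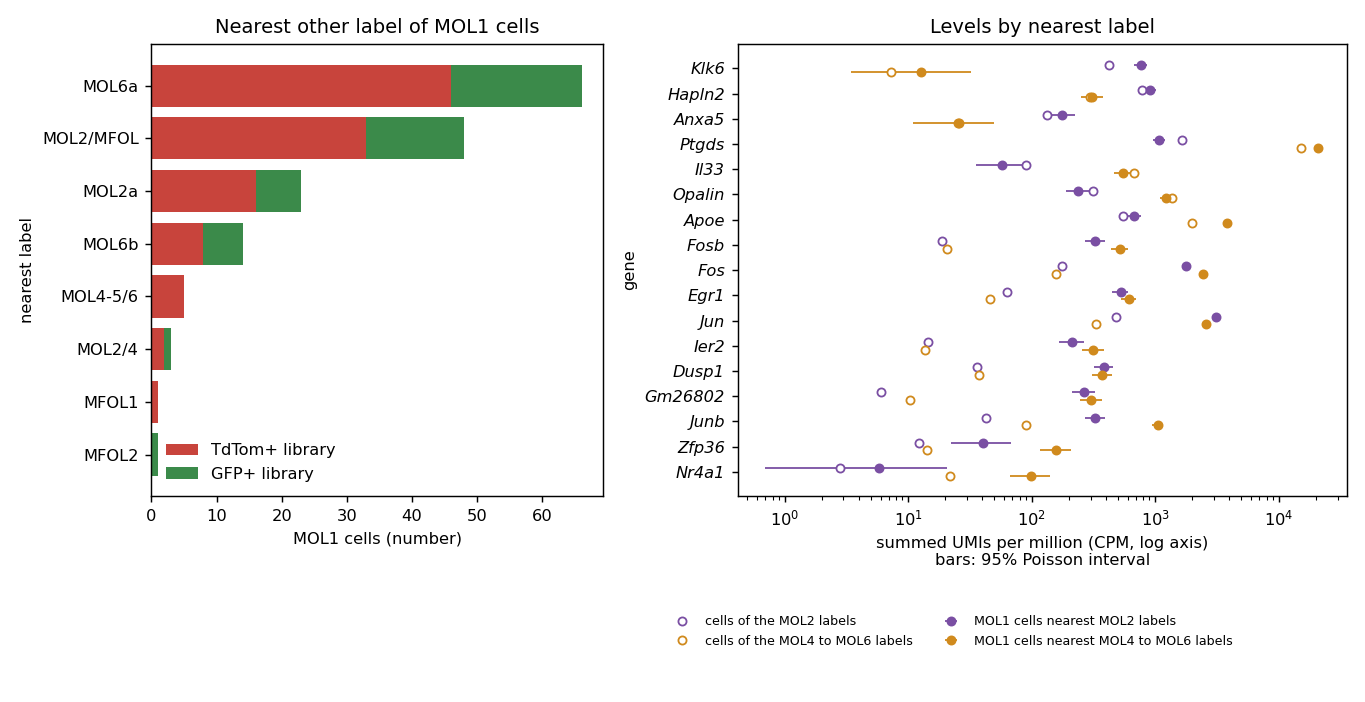
Left, number of MOL1 cells nearest to each other label by rank correlation without immediate early and heat shock genes, from the TdTom+ (red) and GFP+ (green) libraries. Right, summed UMIs in CPM (log axis) in MOL1 cells (filled, 95% Poisson intervals) near MOL2 labels (purple) or MOL4 to MOL6 labels (orange) and in the cells so labelled (open), where Fos, Fosb and Egr1 are higher in both sets of MOL1 cells and Nr4a1 differs between them. Fos, Fosb and Egr1 are given markers of MOL1, so their higher level describes the label.

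Dorsally and ventrally derived MOL1 cells were finally set side by side. Over 2913 genes that averaged 50 CPM or more in MOL1, 52 genes (1.79%) had a log2 ratio of TdTom+ over GFP+ of at least 1 and 19 (0.652%) of -1 or lower, from 111 and 50 cells. These counts depended on the settings, with 25 and 10 genes at a pseudocount of 10 CPM, 0 and 1 at a filter of 200 CPM, and 41 and 42 by the mean of each cell's CPM. The immediate early markers were alike, with Fosb at 0.01 (-0.36 to 0.39), Egr1 at 0.31 (-0.02 to 0.65), Jun at 0.08 and Junb at 0.03. Fos was slightly lower in TdTom+ MOL1 cells, at -0.20 (-0.37 to -0.04), as were Ier2 at -0.51 (-0.96 to -0.05) and Gm26802 at -0.68 (-1.11 to -0.25). Egr2, at 0.99 (-0.28 to 2.58), could not be separated from equality at this depth.

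The highest ratios were those of Glg1, a Golgi glycoprotein, with 92.2 CPM (43 UMIs) in TdTom+ and 14.8 CPM (3 UMIs) in GFP+ MOL1 cells (2.56, 0.99 to 4.97), Bsdc1 at 1.87, Prkcsh, a glucosidase subunit of the endoplasmic reticulum, at 1.68, Tjp1, a tight junction scaffold, at 1.64, and Dnajb11, a chaperone of the endoplasmic reticulum, at 1.50. The lowest were Rasa3, a GTPase-activating protein for Ras family members, at -1.53 (-2.53 to -0.60), Dusp10, a phosphatase of stress-activated kinases, at -1.43 (-2.14 to -0.74), Eif3e, a translation initiation subunit, at -1.27, and Supt16 and Shisa8, both at -1.26. Dusp10 had 72.9 CPM in TdTom+ and 198 CPM in GFP+ MOL1 cells, while the other cells had 65.1 and 57.6 CPM. With 1 library per origin, origin and library cannot be told apart.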

How the data were processed

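Single-cell RNA-seq of sorted oligodendrocyte lineage cells was taken as deposited by the authors, as a matrix of normalized signal (each gene's share of a cell's UMIs) for 11733 genes, with a table of cells and labels. Per the study's methods, cells with 200 to 3000 genes and less than 5% mitochondrial UMIs were kept, and labels came from clustering after integration. The submitters' processing notes name Cell Ranger 2.1.1 and the build mm10. A UMI count was recovered from the deposited values by dividing by each cell's smallest value above 0, and 100% of values came out whole within 0.01. The design had assumed deposited counts, and with 1 library per origin no count model was fitted. Deposited cells with more than 3000 genes were kept, and no doublet caller was run. Of 40 columns of the cell table, 35 were not used. The libraries shared 1 barcode sequence, in 0 MOL1 cells.

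Counts were summed per library and label and scaled to CPM, and ratios are log2(CPM + 1). Genes were called at a log2 ratio of 1 in both libraries, among genes averaging 50 CPM or more. Intervals are exact 95% Poisson, Clopper-Pearson or conditional binomial intervals. Those of ratios use counts without the pseudocount, which pulls the ratios of low genes towards 0 within them. Samples were grouped by reporter, per the labels. Named genes were the 4 markers, the 15 highest and 10 lowest ratios, the 5 highest and lowest between origins, the leading members of each gene list by level or ratio, and cell type markers, some of which are not reported here. Members and lists were chosen with earlier results of these data known. Alternatives were no filter or 200 CPM, another pseudocount, TMM scaling (edgeR), cell means, other depths and other correlations. Python 3.11.15, numpy 2.4.6, pandas 2.3.3 and scipy 1.17.1 were used, and the ratio step was tested on simulated data.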

Additional observations from a re-analysis of the deposited data

Results flagged for a closer look

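Rasa3, a GTPase-activating protein for Ras family members, differed in direction between the origins. Its log2 ratio of MOL1 over other cells was -0.84 (95% counting interval -1.63 to -0.18) among TdTom+ cells and 0.73 (0.05 to 1.36) among GFP+ cells, from 18 and 23 UMIs in MOL1 cells. The difference between the libraries was not tested, since each origin had 1 library, and Rasa3 was among the genes named for the lowest TdTom+ over GFP+ ratio within MOL1.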

How the results depend on the processing

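No paired analysis was possible because each origin had 1 library. Without a filter on low values 64 genes were higher in MOL1 (0.545% of all genes) and 918 lower (7.82%) in both libraries, and with a filter of 200 CPM 10 (6 of them immediate early) and 0. A pseudocount of 10 CPM left 1 gene lower, and comparison with other mature oligodendrocytes only left 0 lower, with Cspg5 at 0.35 in TdTom+ and Lims2 at 0.39 in GFP+ cells. Between origins, the genes higher and lower in TdTom+ MOL1 cells numbered 25 and 10 with a pseudocount of 10 CPM, 1943 and 1026 without a filter and 0 and 1 at 200 CPM, and 42 were lower by each cell's mean CPM. Without the 4 markers the immediate early share was 0.820% in TdTom+, 0.844% in GFP+ and 0.842% in all MOL1 cells. Shares of cells with a UMI moved with depth: unthinned they were 65.8% for Fosb, 18.0% for Egr2, 78.3% for Egr1 and 88.8% for at least 2 markers, at 1000 UMIs 36.6%, 4.35%, 41.0% and 50.9% (Fos 77.6%), and with at least 2 UMIs required 24.8%, 0.637%, 37.6% and 44.6%. With immediate early and heat shock genes kept, 39.8% of MOL1 cells were nearest to MOL1, and, without that choice, 50.3% to MOL6a, 37.9% to MOL2/MFOL and 6.21% to MOL2a. By Pearson correlation 7.45% were nearest to MOL1 and 22.4% to MOL2/MFOL. Of 130 values of single genes per library set against other cells, 114 in TdTom+ and 118 in GFP+ stayed within their counting interval. The cause of these movements was not tested, beyond what fewer genes or UMIs set by construction.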
